A study of Homo sapiens with 6 samples.

Results

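Solute carriers are membrane proteins that move nutrients, ions, metals and metabolites across cell membranes, and the 199 of them with well expressed mRNA in HEK293-T cells are described here. Members were chosen by symbol and selected on the mean level. A gene was a member if its symbol in the deposited table was SLC, a family number, a letter or letters and a member number, if it was no pseudogene, and if its mean normalized count over the 6 libraries was at least 100. The table held 255 solute carrier genes by symbol among 16834 genes, and 56 of them were below that limit. The members fell into 45 families. The SLC25 family, most of whose proteins are carriers of the inner mitochondrial membrane, gave 38 members by symbol, and the other families gave 161. The limit used the level over all libraries and not the difference between the groups, so levels are given as a description only. SLC15A1 at 100.1 and SLC27A1 at 100.9 normalized counts were just above the limit, and SLC25A48 at 99.9 and SLC13A4 at 96.8 were just below it. Of the members, 3 had a mean under the limit in the HA-IPs alone (SLC8A1, SLC25A45 and SLC38A6) and 3 in the Flag-IPs alone (SLC10A4, SLC15A1 and SLC27A1).

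Plasma membrane carriers of this superfamily bring in amino acids, glucose and lactate and exchange ions and protons, and carriers of the SLC35 family supply nucleotide sugars to the Golgi and the endoplasmic reticulum. Most SLC25 proteins share a fold of repeated membrane helix pairs and exchange metabolites between the cytosol and the mitochondrial matrix. The best known are the ADP/ATP carriers, which export ATP made by oxidative phosphorylation in return for ADP, and the phosphate carrier SLC25A3. Of the ADP/ATP carriers, SLC25A4 is the form of heart and skeletal muscle, SLC25A5 is that of dividing cells, and SLC25A6 is found broadly.

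The libraries came from asynchronously growing HEK293-T Flp-In cells, a human embryonic kidney line with a recombination site that held 1 copy of ccTaggedRP under the CAG promoter. All 6 samples carried this construct, which encodes a pair of tagged forms of mouse RPL10a, a protein of the large ribosomal subunit, joined by a self-cleaving peptide. In 3 samples ribosomes were precipitated through Flag-RPL10a-hCdt, whose degron is built to leave the protein in G1 and S phase (Flag-IP). In the other 3 they were precipitated through HA-RPL10a-hGem, whose degron is built to leave it in S, G2 and M phase (HA-IP). There was no input RNA and no mock precipitation among these libraries, so the values compare the precipitates with each other. Nothing in the labels ties the replicates of a group to separate cultures, and p-values therefore measure only the spread between these libraries, which may be technical. The difference between the precipitates cannot be told apart from the difference between the antibodies. The HA-IPs held between 28737728 and 44134833 reads on the listed genes and the Flag-IPs between 23174532 and 33429519. Of the 8 markers of embryonic kidney epithelium, all were in the table and their summed level was 17164 to 17530 normalized counts in the Flag-IPs against 19180 to 19487 in the HA-IPs, with KRT8 and EPCAM highest. Epithelial CDH1 and EPCAM were called higher in the HA-IPs, and the renal factors PAX2 and PAX8 higher in the Flag-IPs. Of 20 heart muscle markers, 16 were in the table and all 16 were called higher in the Flag-IPs, where their sum was 70457 to 151420, against 1813 to 14425 in the HA-IPs, and none of the 16 was at 0 in any library. All samples are labelled as the same cell line, so these sums are RNA levels in the precipitates and do not count cells of a type. The source of the marker RNA was not tested. Fibroblast markers summed to 6352 to 8887 in the Flag-IPs against 2722 to 3365 in the HA-IPs, with 8 of 9 called higher in the Flag-IPs. Endothelial markers summed to 482 to 595 and 342 to 367, with 4 of 7 called higher in the Flag-IPs, and their defining members PECAM1 and CDH5 were not among the listed genes. Beside these marker counts, 7.1% of all genes were called higher in the Flag-IPs and 5.79% higher in the HA-IPs.

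Promoter sequences of the carriers on which the results turn are shown to place the genes in the genome and to show how differently they begin. RefSeq (GRCh38.p14) gave a promoter window for 165 of the 199 members, and the 250 bases before the RefSeq start are printed 5′ to 3′ on the strand of the gene, or 249 for SLC8A1, where 1 base lay in an exon. Capitals mark CCAAT and GGGCGG, each searched on both strands. SLC25A4 is the ADP/ATP carrier that passed the test of the difference, and SLC25A6 is a relative that did not. SLC8A1 and SLC4A3 were among the carriers furthest toward the Flag-IPs, and their windows lie inside the longer gene spans of GENCODE. SLC38A2 is an amino acid carrier that was higher in the HA-IPs.
SLC25A4, chr4:185143016-185143265, plus strand: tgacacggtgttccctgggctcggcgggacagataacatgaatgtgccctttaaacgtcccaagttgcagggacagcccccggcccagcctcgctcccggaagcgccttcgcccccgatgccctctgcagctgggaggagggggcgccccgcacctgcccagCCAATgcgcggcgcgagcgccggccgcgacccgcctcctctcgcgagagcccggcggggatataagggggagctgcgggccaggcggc
SLC25A6, chrX:1392114-1392363, minus strand: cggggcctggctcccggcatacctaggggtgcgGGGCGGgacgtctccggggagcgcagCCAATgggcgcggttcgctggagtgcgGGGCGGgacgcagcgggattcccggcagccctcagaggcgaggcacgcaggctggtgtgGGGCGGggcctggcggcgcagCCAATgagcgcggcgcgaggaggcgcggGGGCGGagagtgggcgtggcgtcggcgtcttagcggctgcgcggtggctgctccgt
SLC8A1, chr2:40512437-40512685, minus strand: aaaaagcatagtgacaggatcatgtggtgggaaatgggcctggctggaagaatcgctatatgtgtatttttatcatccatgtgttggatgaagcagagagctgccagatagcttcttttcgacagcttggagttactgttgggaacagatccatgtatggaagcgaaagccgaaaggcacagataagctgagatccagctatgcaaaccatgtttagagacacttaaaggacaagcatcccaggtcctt
SLC4A3, chr2:219630807-219631056, plus strand: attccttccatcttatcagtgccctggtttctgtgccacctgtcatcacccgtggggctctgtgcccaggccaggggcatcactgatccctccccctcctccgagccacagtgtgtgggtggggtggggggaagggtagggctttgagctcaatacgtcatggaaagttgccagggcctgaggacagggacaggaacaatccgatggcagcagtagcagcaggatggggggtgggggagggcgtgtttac
SLC38A2, chr12:46372774-46373023, minus strand: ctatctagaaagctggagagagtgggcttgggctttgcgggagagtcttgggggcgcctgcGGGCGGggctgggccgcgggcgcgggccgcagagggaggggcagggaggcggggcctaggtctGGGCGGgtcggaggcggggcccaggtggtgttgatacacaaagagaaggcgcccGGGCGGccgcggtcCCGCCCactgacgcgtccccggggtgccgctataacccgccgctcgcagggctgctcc
The SLC25A6 window held 4 GGGCGG and 2 CCAAT, that of SLC25A4 held 1 CCAAT, that of SLC38A2 held 4 GGGCGG, and those of SLC8A1 and SLC4A3 held neither. GGGCGG was in 71.9% of the 32 SLC25 windows and 70.7% of the 133 others, against 42.3% of all 27305 RefSeq windows of the same length. CCAAT was in 50% of the SLC25 windows, 35.3% of the others and 33.0% of all, and TATAAA was in 6.25%, 6.02% and 11.1%. The median GC content of the windows was 68.2% for SLC25, 66.0% for the others and 58.0% for all genes. A pattern of 10 letters kept the outer letters of the core motif of the muscle factor MEF2 and left its 4 middle positions free. This pattern was in 0% of the SLC25 windows, 3.76% of the others and 2.42% of all. Any base was counted at the free positions, so these are not shares of MEF2 sites. TGATGNAA, letters shared by sites of amino acid response factors, was in 3.12%, 1.5% and 3.19%.

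The solute carriers spanned a wide range of levels. Levels between genes are given as normalized counts per kilobase of the canonical GENCODE 44 transcript. Among SLC25 members SLC25A5 was highest, with a mean of 6247 per kilobase and a range of 5782 to 7448 over the 6 libraries. SLC25A6 followed at 4722 (4385 to 5349), and the citrate carrier SLC25A1 at 3622 (3361 to 3946). The ranges of these carriers over the libraries did not overlap. SLC25A39, which brings glutathione into mitochondria, was at 2170 per kilobase and SLC25A3 at 2121, and their ranges overlapped. The value of SLC25A3 rests on a canonical transcript of 5984 bases. The oxoglutarate carrier SLC25A11 was at 1577, and the lowest SLC25 member was SLC25A21 at 46.2. Among the other families the glutamine carrier SLC1A5 was highest at 5101 per kilobase, from 4031 to 5770. SLC3A2, the heavy chain that partners the light chain amino acid carriers, was at 3846, from 3558 to 4046, so that it overlapped SLC1A5. Lactate carrier SLC16A1 came next at 2548, then SLC35A4 at 2267, the zinc carrier SLC39A7 at 2241 and the phosphate carrier SLC20A1 at 2014. Zinc carrier SLC39A1 was at 1945, but it shares nearly all of its sequence with an annotated readthrough gene, and its reads could have been divided between them.

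**Figure D1:**
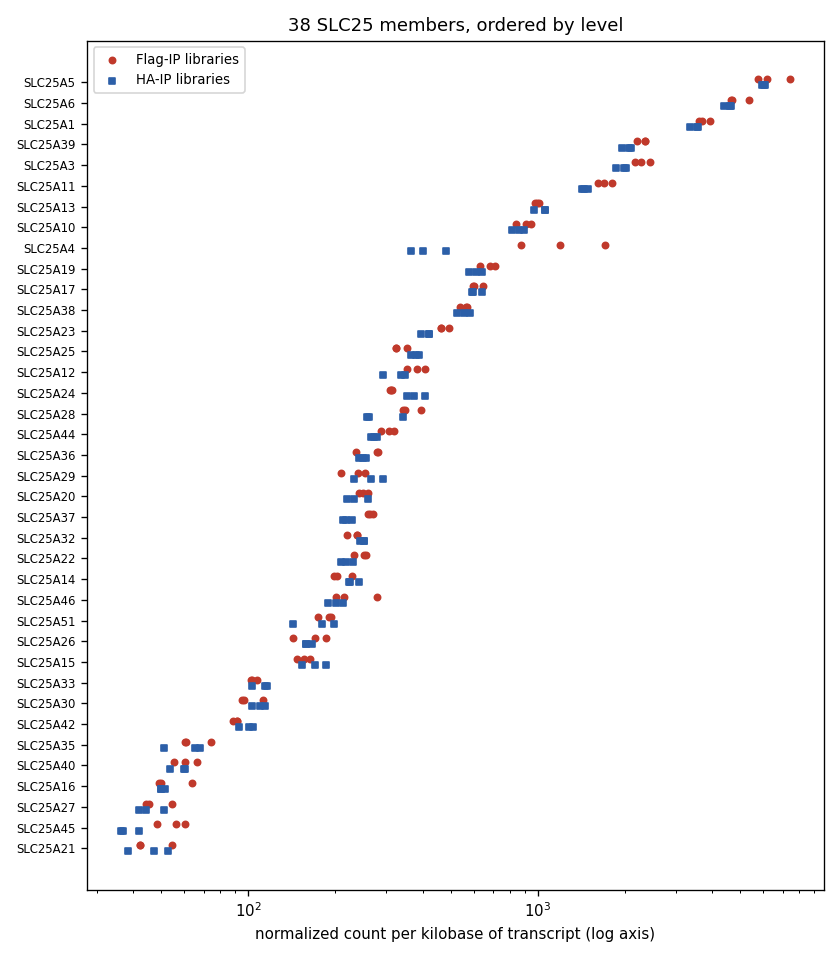
Normalized count per kilobase of transcript (log axis) of the 38 SLC25 members in the 3 Flag-IP and 3 HA-IP libraries, 1 point per library, ordered by mean level. SLC25A5 is at the top with 5782 to 7448, and SLC25A4 is the carrier whose Flag-IP and HA-IP points lie furthest apart.

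Most of the well expressed solute carriers differed little between the precipitates, and a few stood out on the Flag side. Fold changes are the log2 of the normalized count plus 1 in the HA-IPs minus that in the Flag-IPs, a scale that understates the change of low genes, and negative values mean a higher level in the Flag-IPs. The test was limma, with the variance modelled along the mean and the Benjamini-Hochberg adjustment over all 16834 genes, and a gene was called at an adjusted p of at most 0.05. Of the 199 members, 161 had a fold change between −0.2 and 0.2. In all, 24 were called, 10 higher in the HA-IPs and 14 higher in the Flag-IPs, and 175 were not called. The members' shares of 5.03% and 7.04% lay near the background, since 5.79% of all genes passed the test toward the HA-IPs, 7.1% toward the Flag-IPs and 12.9% in either direction. The shares were 8.09%, 6.97% and 15.1% for 11895 genes whose mean also reached 100. Every HA-IP was above every Flag-IP for 31 members and below for 32, together 31.7% of them. The share without overlap was 32.2% for all genes (16.1% in each direction) and 36.9% for genes whose mean reached 100 (21.0% higher in the HA-IPs, 15.9% in the Flag-IPs). The split of the calls depended on the scaling. With every library set to the same total, 3 members (SLC1A5, SLC4A7 and SLC5A3) passed toward the HA-IPs and 21 toward the Flag-IPs.

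**Figure D2:**
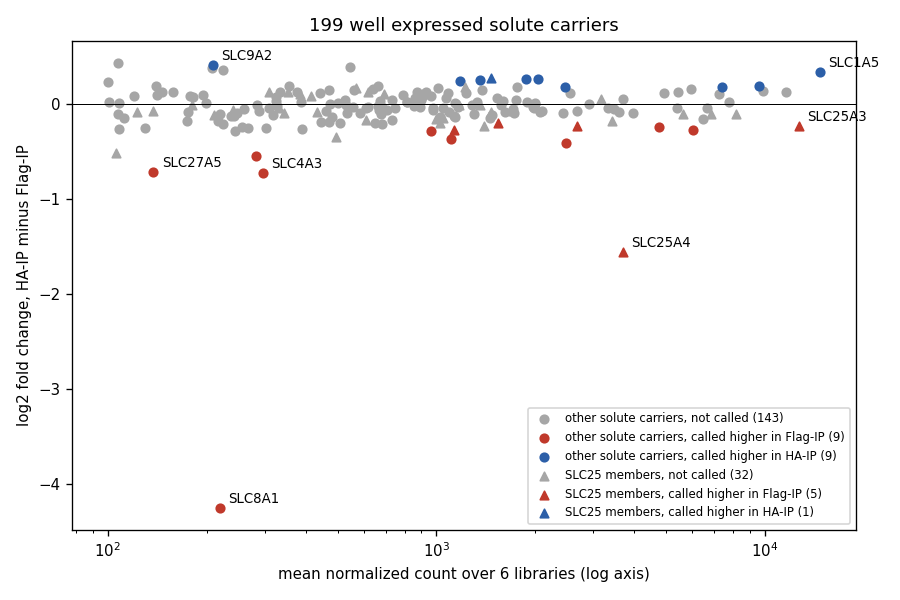
Log2 fold change (HA-IP minus Flag-IP, vertical axis) against the mean normalized count over 6 libraries (log axis) for the 199 solute carriers, 1 point per gene, with triangles for SLC25 members and colours for genes called by limma. Most points lie near 0, and SLC8A1 at −4.25 and SLC25A4 at −1.55 are the only members beyond 1 on either side.

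The SLC25 members had a lower median fold change than the other solute carriers, by a small amount. Of the 38, 1 was called higher in the HA-IPs (SLC25A24) and 5 in the Flag-IPs (SLC25A3, SLC25A4, SLC25A11, SLC25A23 and SLC25A37), 2.63% and 13.2%, beside 5.79% and 7.1% of all genes, and 28 had a negative fold change. Of the 161 others, 9 were called in each direction, 5.59%, and 86 had a negative fold change. The median fold change was −0.08 for SLC25, −0.01 for the others (0.02 with quantile normalization), −0.005 for all genes and 0.01 for those whose mean reached 100. All 3 Flag-IPs exceeded all 3 HA-IPs for 11 SLC25 members, 28.9%, and the reverse held for 4, 10.5%. Over all genes each of these patterns was found in 16.1%. The SLC25 share of all normalized counts was 0.259%, 0.239% and 0.222% in Flag-IP replicates 1, 2 and 3, and 0.206%, 0.200% and 0.205% in the HA-IPs. Thus every Flag-IP had a larger SLC25 share than every HA-IP, also without SLC25A4 (0.210% to 0.234% against 0.195% to 0.200%). The share of the other members overlapped between groups, 0.799% to 0.816% in the Flag-IPs against 0.779% to 0.816% in the HA-IPs.

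The difference in the median was not even over the libraries. Relative to each gene's own mean, the median SLC25 level was 0.09, 0.03 and −0.02 in Flag-IP replicates 1, 2 and 3 on the log2 scale, and −0.03, −0.04 and −0.04 in the HA-IPs. Flag-IP replicate 1 was highest and Flag-IP replicate 3 was close to the HA-IPs, though above them. Without Flag-IP replicate 1 the SLC25 median was −0.02, and without Flag-IP replicate 3 it was −0.14. The summed heart muscle markers followed the same order over the Flag-IPs, 151420, 107770 and 70457, and were 2820, 1813 and 14425 in the HA-IPs. Within the HA-IPs the order was not shared, since replicate 3 had the highest marker sum but no higher SLC25 median than the others. The part of the heart markers in the SLC25 values was not tested. SLC25 transcripts were shorter, with a median of 2908 bases against 3827 for the others. With the trends of GC content and length taken out of each library, the medians were −0.04 for SLC25 and −0.03 for the others. The difference between the SLC25 members and the others was not tested, since the members were chosen with results of these data known.

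**Figure D3:**
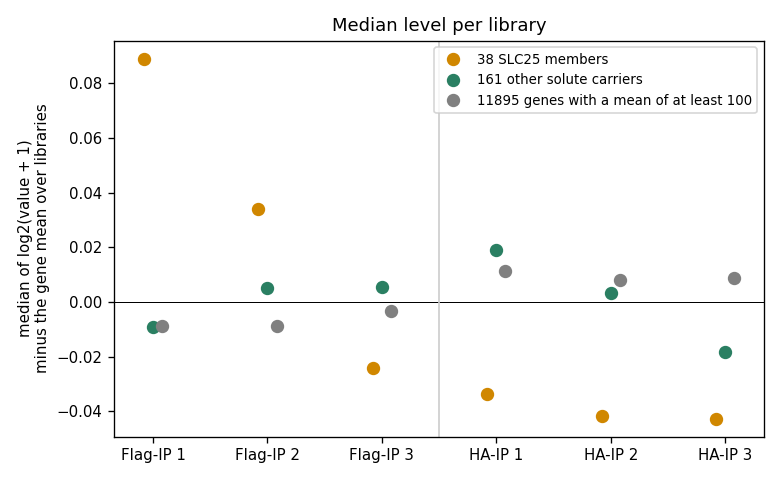
Median over genes of log2(normalized count + 1) minus the gene's mean over the libraries (vertical axis), by library, for 38 SLC25 members, 161 other solute carriers and 11895 genes with a mean of at least 100. The SLC25 median is 0.09 in Flag-IP replicate 1 and between −0.04 and 0.03 in the remaining libraries.

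SLC25A4 (ENSG00000151729), the muscle form of the ADP/ATP carrier, was the SLC25 member with the largest difference. The gene lies at chr4:185143266-185150382 on the plus strand (GRCh38). Its normalized counts were 7552, 5258 and 3863 in Flag-IP replicates 1, 2 and 3 against 1773, 1609 and 2123 in HA-IP replicates 1, 2 and 3. The groups did not overlap, and Flag-IP replicate 1 was highest. The mean was 5558 ± 1862 (SD, n = 3) in the Flag-IPs against 1835 ± 262 in the HA-IPs, 3.03 times higher in the Flag-IPs, with a log2 fold change of −1.55 ± 0.18 (SE) and a Benjamini-Hochberg adjusted p of 0.000579 in limma. The call held with any 1 library left out and was lost without the variance trend (limma adjusted p = 0.0648).

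The other ADP/ATP carriers, both more abundant, differed far less. SLC25A5 had normalized counts of 9735, 8118 and 7557 in the Flag-IPs against 7759, 7932 and 7891 in the HA-IPs. SLC25A6, a gene of the pseudoautosomal region, had 7762, 6824 and 6737 in the Flag-IPs against 6362, 6668 and 6757 in the HA-IPs. Both were highest in Flag-IP replicate 1 and overlapped between the groups. Their log2 fold changes were −0.10 ± 0.08 and −0.11 ± 0.06 (SE), with adjusted p-values of 0.454 and 0.286 in limma. SLC25A31, the germ cell form, was not among the members.

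SLC25A24, SLC25A23 and SLC25A25 are the calcium-regulated carriers that exchange ATP-magnesium for phosphate, and they did not move alike. SLC25A24 (ENSG00000085491) had 1334, 1321 and 1308 normalized counts in the Flag-IPs against 1726, 1586 and 1501 in the HA-IPs. Every HA-IP was above every Flag-IP, and the log2 fold change was 0.28 ± 0.06 (SE, limma adjusted p = 0.0156). SLC25A23 had 1616, 1723 and 1606 in the Flag-IPs against 1375, 1463 and 1466 in the HA-IPs. The groups were apart in the other direction, at −0.20 ± 0.06 (limma adjusted p = 0.0432). SLC25A25 was at 0.18 with an adjusted p of 0.0866 in limma. The SLC25A24 call held in 3 and the SLC25A23 call in 2 of the 6 fits without 1 library, and SLC25A24 was not called with every library at the same total. SLC25A24 shares 6.96% of its 100-base stretches with an antisense gene. Of all 13 nucleotide and cofactor carriers among the members, 1 was called in the HA-IPs against 2 in the Flag-IPs. The shares were 7.69% and 15.4%, beside 5.79% and 7.1% of all genes. SLC25A51, which brings NAD+ into mitochondria, was at −0.11 with an adjusted p of 0.662 in limma.

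All 5 carriers of phosphate and carboxylates among the SLC25 members had a negative fold change, and 2 of them were called. Called toward the Flag-IPs were thus 40%, beside 7.1% of all genes, and 51.0% of all genes had a negative fold change. SLC25A3 (ENSG00000075415) lies at chr12:98593591-98606379 on the plus strand and had 14597, 13603 and 12919 normalized counts in the Flag-IPs. It had 12028, 11172 and 11827 in the HA-IPs. No HA-IP reached the lowest Flag-IP, and the log2 fold change was −0.23 ± 0.06 (SE, limma adjusted p = 0.0200). The SLC25A3 call was lost without Flag-IP replicate 2 or without any 1 HA-IP (limma adjusted p = 0.0572 to 0.108). SLC25A11, with 2881 ± 160 in the Flag-IPs against 2455 ± 59.0 in the HA-IPs (SD, n = 3), was also at −0.23 (limma adjusted p = 0.0202). Its call was lost with GC content and length trends removed (limma adjusted p = 0.0682), and its exons overlap those of RNF167 on the opposite strand. SLC25A1 was at −0.10 (limma adjusted p = 0.230), although its groups did not overlap.

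Of the carriers of amino acids and related compounds in the SLC25 family, 0 of 11 were called by limma, beside 12.9% of all genes. An unadjusted p under 0.05 in limma was found for 3, each higher in the Flag-IPs. SLC25A13, the aspartate and glutamate carrier, was at 0.05 (limma adjusted p = 0.590) and its relative SLC25A12 at −0.23 (limma adjusted p = 0.0763). SLC25A39 was at −0.17 (limma adjusted p = 0.0525). Of the 9 carriers of metals, uncouplers and others, 1 was called toward the Flag-IPs, or 11.1% beside 7.1% of all genes. This was SLC25A37, mitoferrin of developing red cells, with 1234 ± 24.4 normalized counts in the Flag-IPs against 1024 ± 36.0 in the HA-IPs (SD, n = 3) and a fold change of −0.27 ± 0.06 (SE, limma adjusted p = 0.0139). The widely expressed mitoferrin SLC25A28 was at −0.34 ± 0.12 (limma adjusted p = 0.0747). Largest after SLC25A4 was the fold change of SLC25A45 at −0.52 ± 0.16, near the limit on level, with an adjusted p of 0.0534 in limma. SLC25A45 passed that limit only through the Flag-IPs, so the limit itself favoured a negative fold change.

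Mitochondrial transporters that are not named SLC gave a comparison. Of 18 such genes in the table, limma called 7 higher in the Flag-IPs against 0 higher in the HA-IPs (9 and 0 at an unadjusted p under 0.05), or 38.9% and 0%, beside 7.1% and 5.79% of all genes. The median fold change was −0.19, and −0.11 with GC content and length trends removed. Called were the calcium uniporter MCU, the pyruvate carrier subunit MPC2, the sideroflexin SFXN2, and the outer membrane channels VDAC2 and VDAC3. Also called were MTCH2 and UCP2, which belong to the SLC25 family under other symbols, so the list is not separate from that family. VDAC2 had 5204, 4480 and 3786 normalized counts in the Flag-IPs against 3381, 3303 and 3506 in the HA-IPs. Flag-IP replicate 1 was again highest, as for SLC25A4 and SLC25A5. VDAC1 was at 0.07 (limma adjusted p = 0.350) and the pyruvate carrier subunit MPC1 at −0.28 (limma adjusted p = 0.303).

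Among carriers of ions and protons, 2 of 27 passed the test toward the HA-IPs and 3 toward the Flag-IPs. The shares were 7.41% and 11.1%, beside 5.79% and 7.1% of all genes. SLC8A1 (ENSG00000183023), the sodium-calcium exchanger of the heart, had the largest difference of all members. Its normalized counts were 421, 500 and 327 in the Flag-IPs against 19.8, 10.9 and 39.7 in the HA-IPs, from 324 to 470 and from 11 to 36 reads. No HA-IP came near a Flag-IP. The mean was 17.7 times higher in the Flag-IPs (416 ± 86.7 against 23.5 ± 14.8, SD, n = 3), and the fold change was −4.25 ± 0.35 (SE, limma adjusted p = 9.55e-05). SLC8A1 passed the limit on level only through the Flag-IPs. It lies at chr2:40097270-40611053 on the minus strand, opposite SLC8A1-AS1, whose reads could not be told apart from its own unless the counting used the strand.

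SLC4A3, the anion exchanger of heart and brain, had 384, 365 and 355 normalized counts in the Flag-IPs against 194, 234 and 243 in the HA-IPs. The groups were well apart, and the fold change was −0.72 ± 0.11 (SE, limma adjusted p = 0.00245). Its relative SLC4A2, the broadly expressed anion exchanger, had a fold change of 0.03 (limma adjusted p = 0.776). SLC4A7, a sodium bicarbonate carrier, was called in the other direction, with 1706 ± 27.2 in the Flag-IPs against 2052 ± 79.7 in the HA-IPs (SD, n = 3), at 0.27 ± 0.05 (SE, limma adjusted p = 0.00963). SLC9A2, a sodium-proton exchanger, was at 0.41 ± 0.11 (limma adjusted p = 0.0324), and its call held in 2 of the 6 fits without 1 library. SLC12A2, the cotransporter of sodium, potassium and chloride, was at 0.11 (limma adjusted p = 0.127), and SLC20A1 at −0.04.

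**Figure D4:**
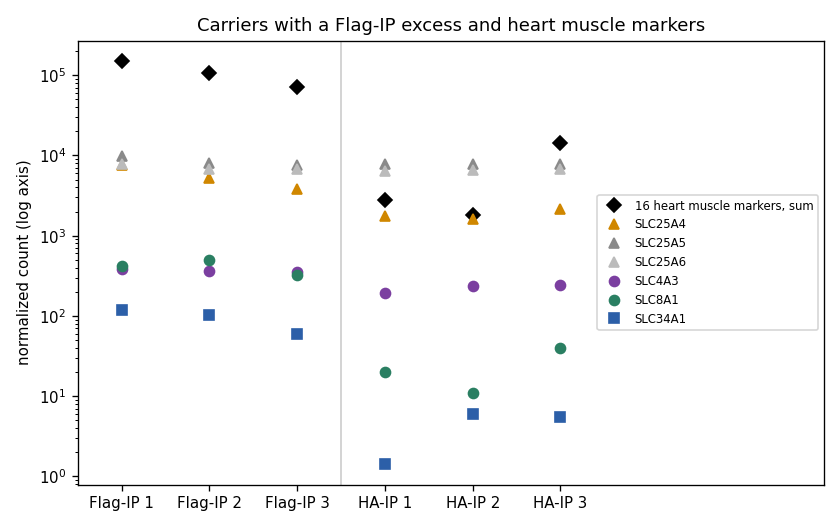
Normalized counts (log axis) by library of SLC8A1, SLC25A4, SLC4A3, the ADP/ATP carriers SLC25A5 and SLC25A6, the renal SLC34A1, and the sum of the 16 heart muscle markers. SLC8A1 and SLC25A4 are higher in all 3 Flag-IPs, where the heart marker sum is 70457 to 151420, against 1813 to 14425 in the HA-IPs.

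SLC8A1, SLC25A4 and SLC4A3 have known roles in the heart, and the heart muscle markers were also higher in the Flag-IPs. These carriers were singled out among the called members and not from a list of heart carriers. SLC2A4, a glucose carrier of muscle below the limit on level, was not called. It was at 57.0 ± 6.58 in the Flag-IPs against 65.9 ± 6.44 in the HA-IPs (SD, n = 3), a fold change of 0.21 (limma adjusted p = 0.549). Within the HA-IPs, replicate 3 had the highest marker sum (14425) and also the highest SLC8A1, SLC25A4 and SLC4A3. Within the Flag-IPs SLC25A4 and SLC4A3 were highest in replicate 1, as the markers were, and SLC8A1 was highest in replicate 2. The part of the heart markers in these differences was not tested. Some renal carriers were also higher in the Flag-IPs, at lower levels. Of 7 carriers that mark nephron segments, 4 were in the table, all below the limit on level. Their sum was 113 to 214 in the Flag-IPs against 36.4 to 44.6 in the HA-IPs. Limma called SLC34A1 and SLC12A1 higher in the Flag-IPs, 2 of 4, or 50% beside 7.1% of all genes. The proximal tubule phosphate carrier SLC34A1 had 119, 102 and 59.0 normalized counts in the Flag-IPs against 1.41, 5.94 and 5.51 in the HA-IPs, the latter from 2, 6 and 5 reads. SLC12A1, the sodium, potassium and chloride carrier of the thick ascending limb, had 68.8, 55.3 and 26.7 in the Flag-IPs against 1.41, 4.95 and 1.10 in the HA-IPs, the latter from 2, 5 and 1 reads. Neither overlapped between groups, and the fold changes were −4.25 ± 0.45 and −3.94 ± 0.53 (SE, limma adjusted p = 0.000361 and 0.00118). The renal factor PAX8 had 44.2, 37.2 and 24.9 in the Flag-IPs against 0, 3.96 and 4.41 in the HA-IPs, and its part in these values was not tested. SLC5A2, the glucose carrier of the proximal tubule, was at 25.5 ± 6.61 in the Flag-IPs against 21.2 ± 6.02 in the HA-IPs (SD, n = 3), with an adjusted p of 0.671 in limma. SLC34A3, another renal phosphate carrier, was at 10.4 ± 9.70 and 12.8 ± 5.60, with a fold change of 0.58 (limma adjusted p = 0.611). Below the limit, limma called 3 of 56 solute carriers, each higher in the Flag-IPs, a share of 5.36% that lay near the 7.1% of all genes. The third was SLC22A4, a carrier of organic cations and ergothioneine, at −1.41 ± 0.31 (limma adjusted p = 0.0135).

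The families counted here as amino acid carriers, which also include carriers of other compounds, gave 30 members. Of these, 4 were called higher in the HA-IPs, 13.3%, beside 5.79% of all genes and 8.09% of those whose mean reached 100. In the other direction 1 was called, 3.33% beside 7.1% of all genes. The median fold change was 0.07, or 0.05 with GC content and length trends removed. Called in the HA-IPs were SLC1A5, SLC1A3, SLC38A2 and SLC6A15, of which SLC1A5 alone kept its call with every library at the same total. SLC1A5 (ENSG00000105281), at chr19:46774883-46788594 on the minus strand, had 11618, 13026 and 14442 normalized counts in the Flag-IPs against 16629, 16538 and 15955 in the HA-IPs. All HA-IPs were higher, and the Flag-IPs were spread more widely, lowest in replicate 1. The fold change was 0.34 ± 0.07 (SE, limma adjusted p = 0.0104), and the call held in 3 of the 6 fits without 1 library. SLC1A5 shares 24.5% of its 100-base stretches with an overlapping antisense gene, and its count is uncertain to that extent.

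The glutamate carrier SLC1A3 was at 1082 ± 56.2 in the Flag-IPs against 1279 ± 35.8 in the HA-IPs (SD, n = 3), a fold change of 0.24 ± 0.06 (SE, limma adjusted p = 0.0277). The SLC1A3 call was lost without Flag-IP replicate 2 or without any 1 HA-IP (limma adjusted p = 0.0726 to 0.136). All 4 SLC1 members had a positive fold change, and in 3 every HA-IP was above every Flag-IP, a pattern found in 16.1% of all genes. SLC38A2, a carrier of small neutral amino acids that cells induce when amino acids run short, had 7104, 6861 and 6789 in the Flag-IPs against 8205, 7617 and 7638 in the HA-IPs. Each HA-IP was above each Flag-IP, at 0.18 ± 0.05 (SE, limma adjusted p = 0.0355). The SLC38A2 call was lost in the same fits (limma adjusted p = 0.0742 to 0.153). SLC6A15, a carrier of branched-chain amino acids, was at 0.18 with an adjusted p of 0.0486 in limma and kept its call in 1 of the 6 fits without 1 library. Higher in the Flag-IPs was SLC6A8, which carries creatine and not an amino acid, at 5156 ± 207 against 4360 ± 129 (SD, n = 3), a fold change of −0.24 ± 0.05 (SE, limma adjusted p = 0.0104).

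Other abundant amino acid carriers were not called. SLC7A1, the cationic amino acid carrier, had a fold change of 0.13 (limma adjusted p = 0.120) and SLC3A2 of 0.11 (limma adjusted p = 0.168). Its light chains SLC7A5, which carries leucine, and SLC7A11, the cystine carrier, were at −0.08 and 0.09 (limma adjusted p = 0.363 and 0.567). Of 9 carriers known as targets of ATF4, the transcription factor of amino acid shortage, limma called 2, SLC1A5 and SLC38A2, higher in the HA-IPs and 0 higher in the Flag-IPs (4 and 0 at an unadjusted p under 0.05), with a median of 0.09. The 22.2% called toward the HA-IPs stand beside 5.79% of all genes and rest on a pair of genes, of which SLC38A2 was not called with the same total or with quantile normalization (limma adjusted p = 0.138 and 0.149). This list was chosen with results of these data known.

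The SLC33 and SLC35 families, which include the carriers of nucleotide sugars but also other carriers, gave 23 members. Of these, 3 of the SLC35 family passed the test, each higher in the Flag-IPs. Limma called 0 higher in the HA-IPs and 3 higher in the Flag-IPs (0 and 5 at an unadjusted p under 0.05), 13.0% toward the Flag-IPs against 7.1% of all genes. A negative fold change was found for 78.3%, against 51.0% of all genes and 46.7% of those whose mean reached 100. The median was −0.04, and −0.08 with GC content and length trends removed. SLC35C1, the GDP-fucose carrier of the Golgi, had 301, 362 and 346 normalized counts in the Flag-IPs against 219, 240 and 229 in the HA-IPs. SLC35B1, which is known to bring ATP into the endoplasmic reticulum, had 1331, 1200 and 1206 in the Flag-IPs against 920, 982 and 995 in the HA-IPs. SLC35A4, a Golgi member of the family, had 6400, 6787 and 6672 in the Flag-IPs against 5540, 5501 and 5364 in the HA-IPs. In each, the groups were apart. The fold changes were −0.55 ± 0.11, −0.37 ± 0.07 and −0.28 ± 0.05 (SE), with limma adjusted p-values of 0.00823, 0.00592 and 0.00386. The calls of SLC35B1 and SLC35A4 held with any 1 library left out, and that of SLC35C1 in 5 of 6 fits.

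Of 27 metal carriers limma called 1, or 3.70% beside 12.9% of all genes in either direction. SLC41A1, a magnesium carrier, had 2665, 3028 and 2810 normalized counts in the Flag-IPs against 2071, 2222 and 2098 in the HA-IPs. The groups were apart, and the fold change was −0.41 ± 0.06 (SE, limma adjusted p = 0.00189). The zinc carriers SLC39A10, SLC30A1, SLC39A7 and SLC39A1 had fold changes of 0.18, 0.04, −0.04 and −0.09, with limma adjusted p-values of 0.118, 0.738, 0.639 and 0.302. Among 22 carriers of sugars and monocarboxylates, limma called SLC16A1 and SLC5A3 higher in the HA-IPs and 0 higher in the Flag-IPs (3 and 2 at an unadjusted p under 0.05). The shares were 9.09% and 0%, beside 5.79% and 7.1% of all genes. SLC16A1 had 8788, 8847 and 9159 in the Flag-IPs against 10506, 9808 and 10261 in the HA-IPs. All HA-IPs were above all Flag-IPs, at 0.19 ± 0.05 (SE, limma adjusted p = 0.0222). The SLC16A1 call was lost without Flag-IP replicate 2 or without any 1 HA-IP (limma adjusted p = 0.0517 to 0.109). SLC5A3 carries myo-inositol and was at 1846 ± 80.9 in the Flag-IPs against 2220 ± 90.8 in the HA-IPs (SD, n = 3), a fold change of 0.27 ± 0.06 (SE, limma adjusted p = 0.0122). It overlaps MRPS6 on the same strand, so reads there may belong to either. The glucose carrier SLC2A1 was at −0.05 (limma adjusted p = 0.547).

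Of the 14 carriers of nucleosides and vitamins limma called 0, beside 12.9% of all genes in either direction. With an unadjusted p under 0.05 in limma, 2 of them had a positive fold change and 1 a negative. The folate carrier SLC19A1 was at −0.15 (limma adjusted p = 0.109) and was called higher in the Flag-IPs with every library at the same total, and the nucleoside carrier SLC29A1 was at −0.04. Among 18 carriers of organic ions, lipids and vesicle contents, the fatty acid carriers SLC27A2 and SLC27A5 were called in opposite directions. That is 5.56% each way, beside 5.79% of all genes toward the HA-IPs and 7.1% toward the Flag-IPs. SLC27A2 was at 1239 ± 63.8 in the Flag-IPs against 1484 ± 83.0 in the HA-IPs (SD, n = 3), a fold change of 0.26 ± 0.07 (SE, limma adjusted p = 0.0244). SLC27A5, an acyl-CoA synthetase of bile acid conjugation in liver, was at 171 ± 17.5 in the Flag-IPs against 104 ± 16.4 in the HA-IPs, a fold change of −0.71 ± 0.16 (SE, limma adjusted p = 0.0146).

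**Figure D5:**
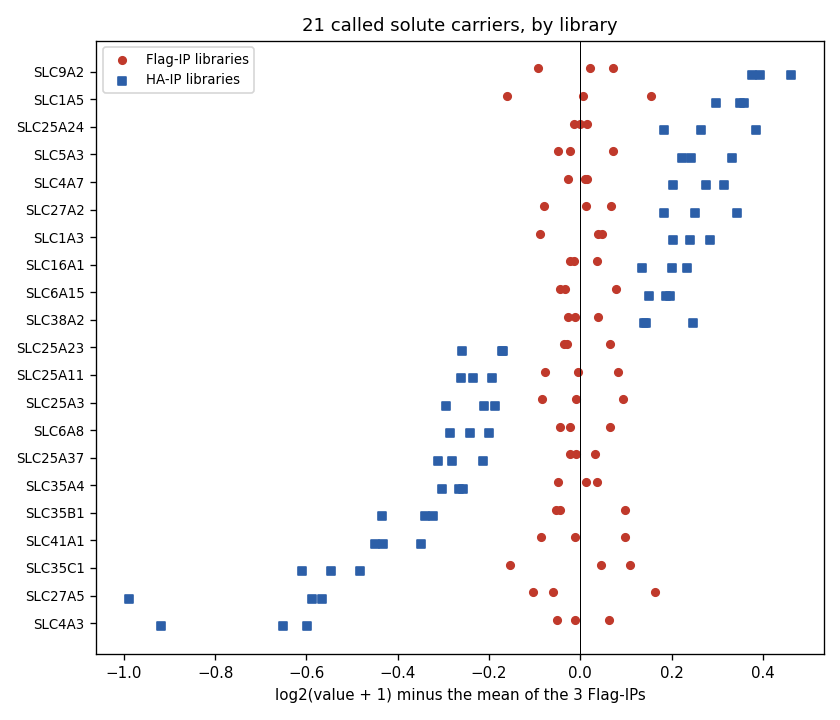
Log2(normalized count + 1) minus the mean of the 3 Flag-IPs (horizontal axis) in each library for 21 called solute carriers, without SLC8A1 and SLC25A4, ordered by fold change. In every gene shown the HA-IP points lie apart from the Flag-IP points, from SLC4A3 at −0.72 to SLC9A2 at 0.41. The genes were selected by their call, so this separation is no further result.

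How many calls were made depended on single libraries. Of the 24 called members, 6 kept the call in all 6 fits without 1 library: SLC8A1, SLC25A4, SLC4A3, SLC41A1, SLC35B1 and SLC35A4, all higher in the Flag-IPs. Without the variance trend the calls of SLC8A1 and SLC4A3 held and the other 22 were lost. Without Flag-IP replicate 2 the calls numbered 1 in the HA-IPs against 6 in the Flag-IPs, and without HA-IP replicate 1 they numbered 1 and 7. Without HA-IP replicate 2, and likewise without HA-IP replicate 3, they numbered 3 and 11. Without Flag-IP replicate 3 they numbered 17 and 17. With every library at the same total, SLC16A1, SLC27A2, SLC9A2, SLC25A24, SLC1A3, SLC38A2 and SLC6A15 lost their calls. With quantile normalization SLC16A1, SLC25A23, SLC38A2 and SLC6A15 did. Reads may also be shared between genes: 18 members had at least 10% of their 100-base stretches in another gene, 150 had none, and 56 had exons overlapping an antisense gene.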

How the data were processed

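RNA bound to Flag- or HA-tagged RPL10a was poly(A)-selected and sequenced in paired reads of 150 bp. The authors trimmed with Trimmomatic 0.36, aligned to GRCh38 with STAR 2.5.2b, counted reads per gene (featureCounts in Subread 1.5.2 in the submitters' processing notes; use of strand not given in the sources used here), left out genes with few reads and deposited a normalized signal, gene counts scaled by library size factors. Further columns hold the authors' DESeq2 fold changes and adjusted p-values, which were not used. All values were whole multiples, within 0.01, of what 1 read is worth, which gave the reads per library; count models were not run.

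Values were taken as log2(value + 1) and compared with limma 3.58.1 in R 4.3.3 (variance trend, two-sided, Benjamini-Hochberg over 16834 genes, adjusted p at most 0.05). In simulated data of this comparison with 200 of 16834 genes changed by a log2 fold change of 1, 200 were recovered with 15 false calls. There all genes had the same dispersion, changed genes had a mean of at least 100, and no library deviated as a whole. Most called members had smaller fold changes, and recovery of those was not simulated. Length, GC content, coordinates and shared stretches of 100 bases came from GENCODE 44 canonical transcripts (GRCh38), present for 16683 genes (99.1%). Their trends were fitted with splines of 5 degrees of freedom (MASS 7.3.60.0.1). Tables and plots were made with Python 3.11.15 and matplotlib 3.10.9.

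The members and all lists were chosen with earlier results of these data known. Named by rule were up to 12 called members per direction with the largest fold change, the 6 SLC25 and 10 other members with the highest level per kilobase, a fixed list of well known carriers, the genes next to the limit, and the lists given in the text. SLC25A12, SLC25A21, SLC25A23, SLC25A25, SLC25A28, SLC25A45 and SLC22A4 were picked once their values had been seen. The values of 1 called member are not reported here. Alternatives were pseudocounts of 0.1 and 10, a mean of at least 50, quantile normalization, the same total per library, no variance trend, the replicate number as a block, removal of GC and length trends, and each library left out. Same-numbered libraries had correlations of deviations of −0.156, 0.0306 and −0.31 over 13141 genes, so the numbers were not taken as pairs.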

Additional observations from a re-analysis of the deposited data

How the results depend on the processing

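Of the 24 called solute carriers, none changed direction under any alternative run, and the call was kept by 23 and 24 with pseudocounts of 0.1 and 10, by 24 with a mean of at least 50, by 20 with quantile normalization, by 17 with the same total per library, by 22 with GC and length trends removed (SLC25A11 and SLC6A15 lost theirs) and by 2, SLC8A1 and SLC4A3, without the variance trend. For SLC25 members the count called higher in the HA-IPs, 1, was 0 with the same total and 0 without the trend, and 0 to 2 with 1 library left out. Their count called higher in the Flag-IPs, 5, was 9 with the same total, 0 without the trend and 1 to 7 with 1 library left out. For the other members the HA-IP count, 9, was 3 with the same total, 0 without the trend and 1 to 15 with 1 library left out, and the Flag-IP count, 9, was 2 without the trend and 5 to 11 with 1 library left out. The SLC25 median of −0.0843 was −0.0266 with quantile normalization, −0.137 with the same total, −0.0413 with GC and length trends removed and −0.136 to −0.0187 with 1 library left out. The median of the others, −0.0117, was 0.0174 with quantile normalization, −0.0646 with the same total, −0.0318 with GC and length trends removed and −0.0175 to −0.000492 with 1 library left out. These scalings also moved the median of all genes, to 0.0443 with quantile normalization and −0.0573 with the same total. The cause of these changes was not tested.

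With the replicate number as a block, SLC25 gave 1 and 4 calls in the HA-IPs and Flag-IPs and the others 6 and 9, with both medians unchanged at −0.0843 and −0.0117. With the block and GC and length trends removed the counts were 1 and 4, and 7 and 10, and the medians −0.0413 and −0.0318. Same-numbered libraries did not deviate together, and pairing therefore rests on the numbers alone. Of the correlations, Flag-IP replicate 1 was highest with HA-IP replicate 3 (0.302). The alternatives with edgeR and DESeq2 were not run. The libraries held 23174532 reads or more, but SLC34A1 and SLC12A1 rest on 1 to 6 reads per HA-IP. The limits set by depth and by the number of libraries were not compared.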
